A study of Xenopus laevis with 28 samples.

Results

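Kinesins are motor proteins that use ATP to move along microtubules or to take microtubules apart. The rows of the deposited table whose symbol begins with kif and a digit were taken as the kinesin motor genes, with every copy kept. They numbered 36 of 45831 gene models and covered 23 genes. By their known roles, 19 rows were placed under axonal and vesicle transport, 9 under spindle and cytokinesis, 5 under cilia and Hedgehog signalling, and 3 (kif26a-like.L, kif26a-like.S and kif26b-like.S) under other motors. The roles were assigned by hand, and the rows of kif1c, kif13a-like, kif13b, kif16b and kif21a stand under transport although their known roles are broader. Symbols ending in -like are named by similarity, and L and S mark the long and short chromosome copies that this allotetraploid frog carries.

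The samples were 14 adult tissues of the J-strain of Xenopus laevis, untreated, with polyadenylated RNA from 2 libraries per tissue and 28 libraries in all. Replicate 1 is from the dataset named Taira and replicate 2 from the one named Ueno. In each of them 13 tissues came from a single female, so they share a donor, and the testis came from a male sibling of the female donors. Comparisons with testis therefore cannot tell organ from sex or donor. Brain stood for neural tissue. Testis and ovary stood for organs with germ cells, and in whole organs a lower level can reflect fewer cells of a type or less RNA per cell, which cannot be told apart here.

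Plus-end-directed kinesins carry vesicles and organelles outward along axons, often through light chains and adaptor proteins. Another set builds the spindle, aligns chromosomes and completes cytokinesis, and is therefore tied to dividing cells. Yet another set moves cargo along cilia or regulates Hedgehog signalling at the ciliary tip. Frog oocytes do not divide as they grow, but they store messenger RNA for the divisions that follow fertilization.

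Values are TPM, a share of a library's transcripts per transcript length, and a difference is one of means of log2(TPM + 1), a scale that understates changes of low genes. All 36 rows reached 1 TPM in at least 2 libraries, as did 33317 models in all. A row was called different by limma at a Benjamini-Hochberg adjusted p under 0.05 over those 33317 models together with means at least 1 log2 unit apart. The share of all models called in the same direction in the main fit is given as the background of each comparison. Counts from other scalings, pseudocounts or filters, from the dataset block, or with a library left out have no background. Library totals lay between 999998.6 and 1000001 TPM, so the read depth is unknown. Each of the 28 libraries had its highest correlation with its tissue's other library, and the neuron markers summed to 4181 and 3347 TPM in brain and to between 5.43 and 45.1 TPM in testis, ovary, kidney and spleen.

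Kinesin levels were mostly lower in the Ueno gonad libraries than in the Taira ones, but this was not particular to kinesins. Between the Ueno and Taira ovary the median difference was -2.36 over the kinesin rows and -0.176 over all models, and in testis it was -1.96 and -0.647. In brain the same medians were -0.506 and -0.119. Median-of-ratios scaling divides each library by a scale factor taken from models above 0 in every library. That factor was 2.75 in the Taira and 0.77 in the Ueno ovary, 2.11 and 0.85 in testis, and 2.30 and 1.94 in brain. Models present in every library were thus also lower in the Ueno gonads, and the medians above are without this scaling. The 9 spindle rows were lower in the Ueno than the Taira library in both gonads and in brain, with medians of -3.73 in ovary, -2.72 in testis and -0.392 in brain. The share of all models lower in these Ueno libraries is not given here, so that count has no background. Dataset, donor and date cannot be told apart here. Calls of kinesin rows and pairs that rest on the gonads are therefore given also without one of these libraries. Those of partner genes and markers are given with all libraries only.

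The level of the kinesins was split mainly between brain and gonads. Brain held the highest mean level of 14 rows, ovary of 12 and testis of 6, while heart, muscle, skin and spleen each held the highest of 1. Over all models tested, brain was highest for 24.1%, ovary for 20.3% and testis for 11.2%. The tissue with the highest level was the same in both datasets for 23 rows (63.9%, against 63.4% of all models). By role, 11 of the 19 transport rows were highest in brain by mean level, and the 9 spindle rows were highest in ovary (7) or testis (2). Not every ovary placement repeated in the Ueno dataset alone. There kif20a-like.L, kif20b-like.S and kif13b.S were highest in testis, and kif13a-like.L, kif16b.L and kif5b.S in skin. An F test over the 14 tissues called 26 of the 36 rows, a share under the background of 83.5%. With the dataset as a block it called 34, and the share of all models called with that block is not given here.

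**Figure D1:**
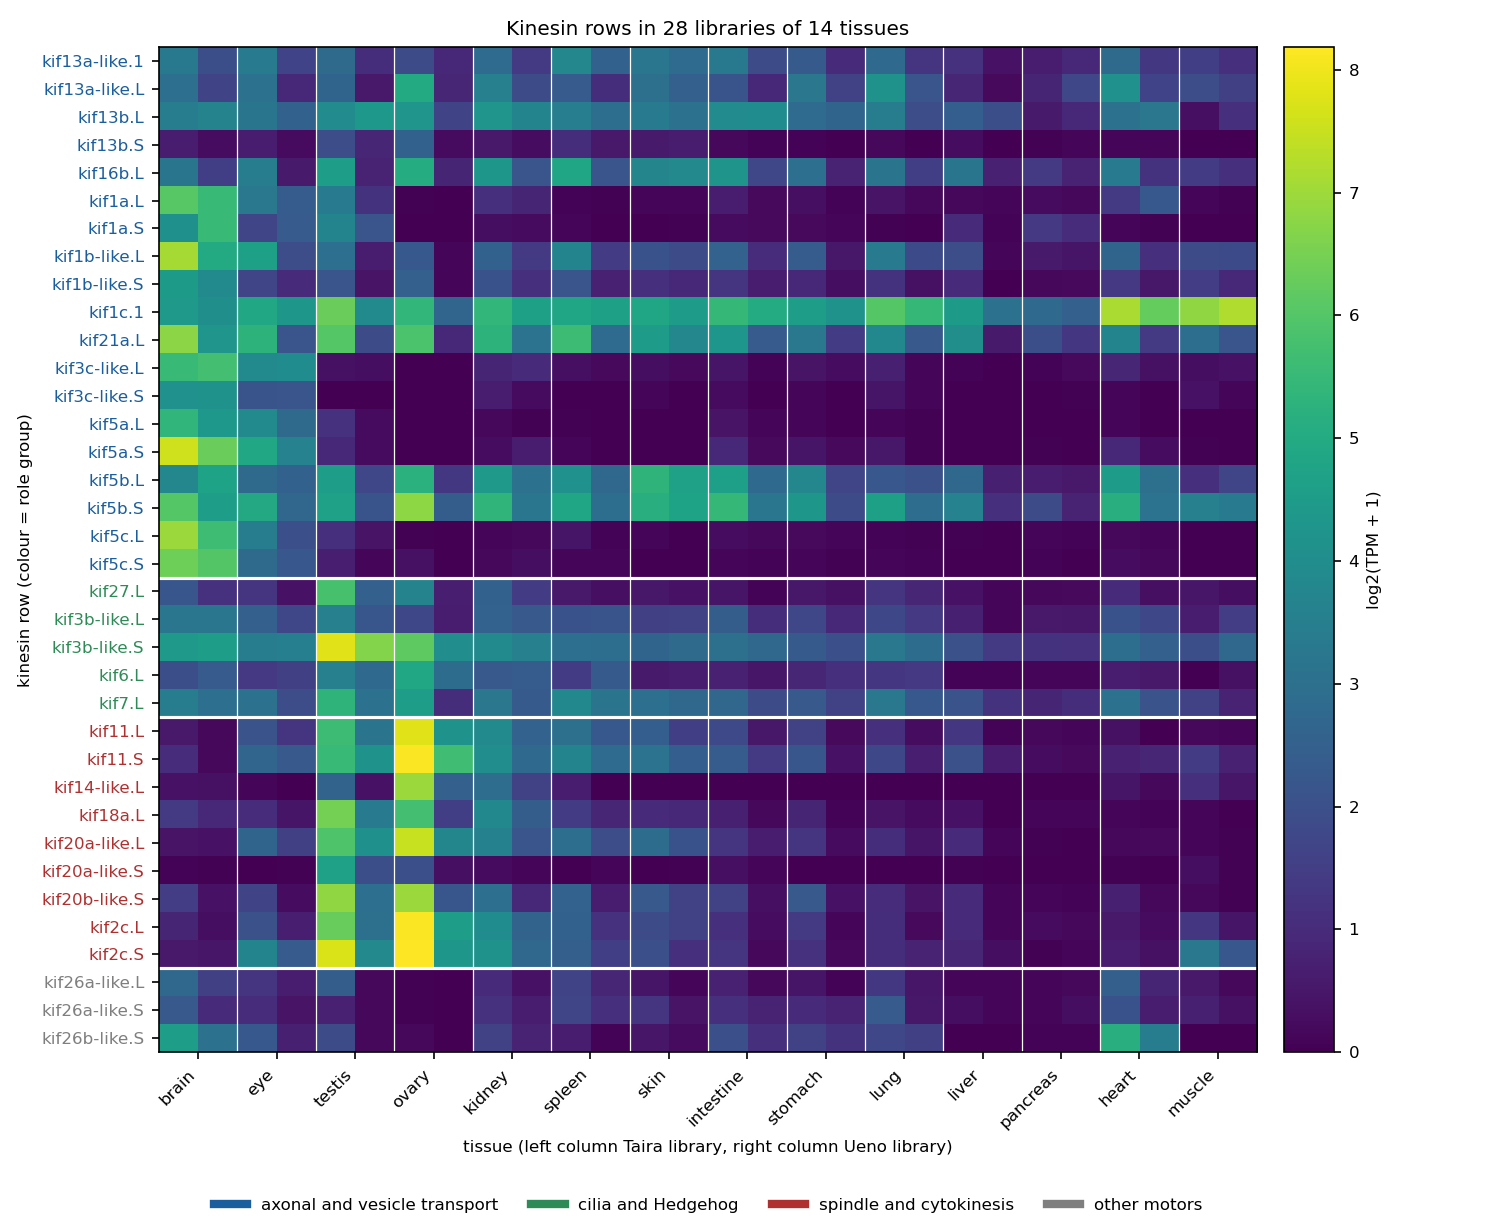
Level of each of the 36 kinesin rows (vertical axis, grouped and coloured by role) in the 28 libraries (horizontal axis, the Taira then the Ueno library of each tissue), as log2(TPM + 1) in colour. The transport rows from kif5a, kif5c, kif1a and kif3c-like are bright in brain and, more weakly, in eye, and the spindle rows are bright in the Taira ovary and testis libraries and dimmer in the Ueno ones.

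Summed over its 19 rows, the transport group came to 978 TPM in the Taira brain library and 516 TPM in the Ueno one. Ovary had 343 and 17.2 TPM, testis 279 and 51.8 TPM, eye 251 and 95.8 TPM, and muscle 142 and 172 TPM, so brain led in both datasets while the order below it did not repeat. In muscle most of the sum was kif1c.1, at 112 and 148 TPM. The spindle group was highest in ovary, with 1557 and 132.5 TPM, and next in testis, with 671 and 81.9 TPM. Brain had 6.94 and 2.78 TPM for it, and heart was lower still, with 3.25 and 1.77 TPM. Pancreas was lowest in TPM for the spindle group, at 0.74 and 0.62 TPM. The order of these low sums depends on the scaling. The median-of-ratios scale factors were 0.181 and 0.186 in pancreas, 2.30 and 1.94 in brain, and 1.34 and 0.849 in heart. The cilia group was highest in testis in both datasets, at 338 and 122 TPM. Most of that sum was kif3b-like.S, at 222 and 101 TPM, while by mean level kif6.L was highest in ovary and kif3b-like.L in brain. Ovary came next in Taira, with 134.8 TPM against 44.8 TPM in brain, but in Ueno brain had 43.4 TPM, kidney 24.65 TPM and ovary 23.96 TPM.

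**Figure D2:**
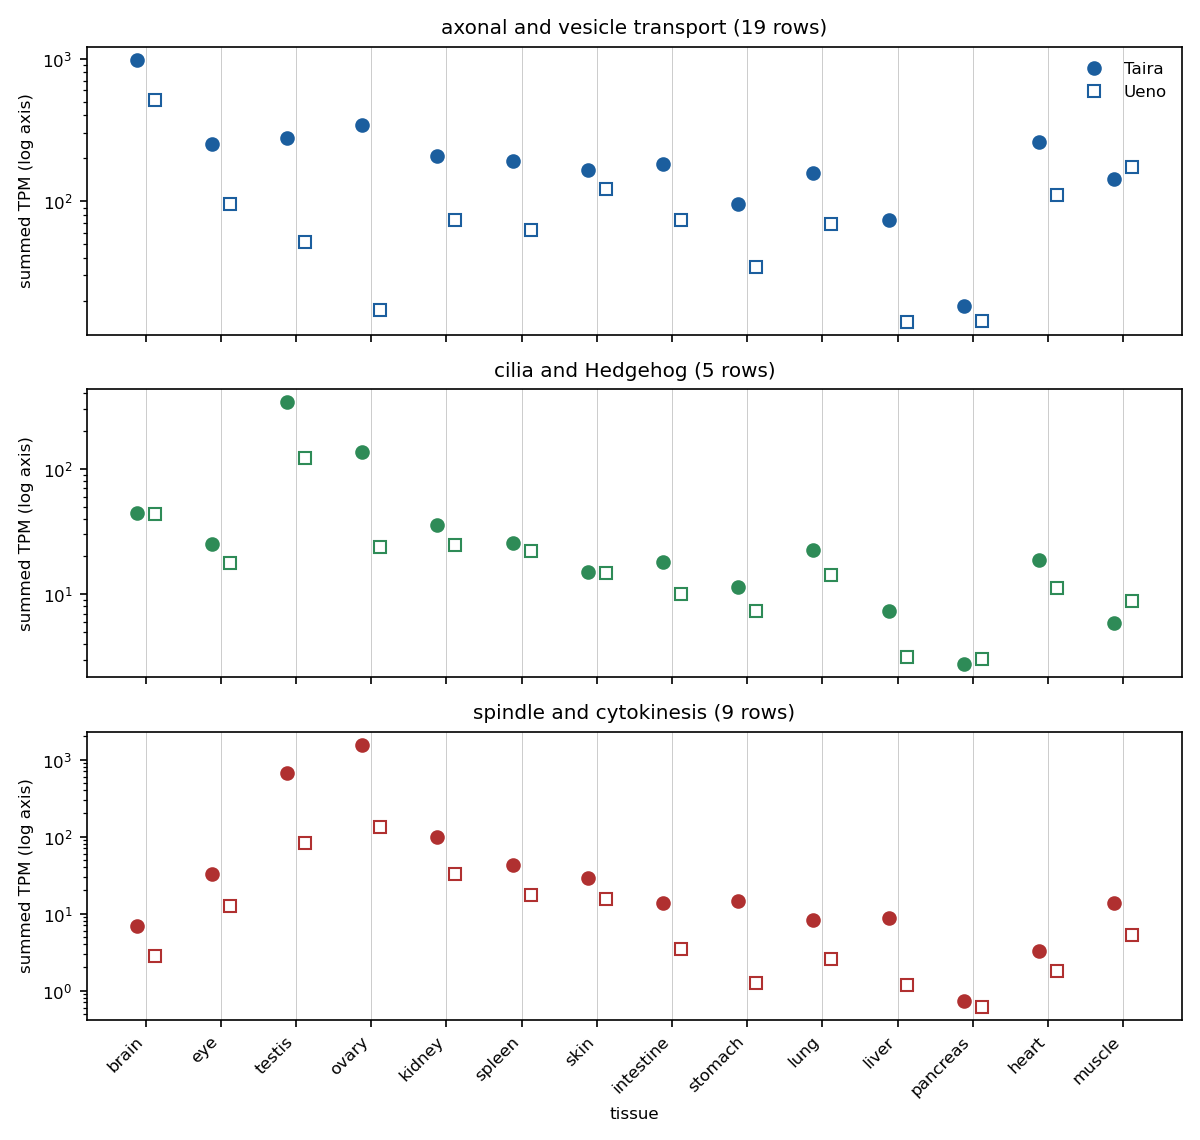
Summed TPM of 3 role groups (1 panel each, log scale on the vertical axis) in each tissue, with 1 point per library, circles for Taira and squares for Ueno. Brain is highest for the transport group in both datasets, ovary for the spindle group, and testis for the cilia group, and the Ueno point lies far below the Taira point in ovary in each panel.

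Brain was compared with testis as neural tissue against an organ of dividing germ cells. Brain had 11 kinesin rows higher than testis (30.6%, background 26.2%) and 10 lower (27.8%, background 9.58%). The rows split by role. Of the 19 transport rows, 10 were higher in brain and the other 9 were not called, and of the 9 spindle rows 8 were lower and the other was not called. The median difference was 1.90 for transport rows, -4.02 for spindle rows and 0.46 over all models. The background median moved to 0.08 with median-of-ratios scaling and to -0.02 with quantile normalization, and the split of calls then became 11 higher to 13 lower and 10 higher to 15 lower. The share of all models called under those scalings is not given here, so these counts have no background. Counted in each dataset alone, 11 rows were higher by at least 1 in both (background 27.3%) and 10 lower (background 8.97%).

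**Figure D3:**
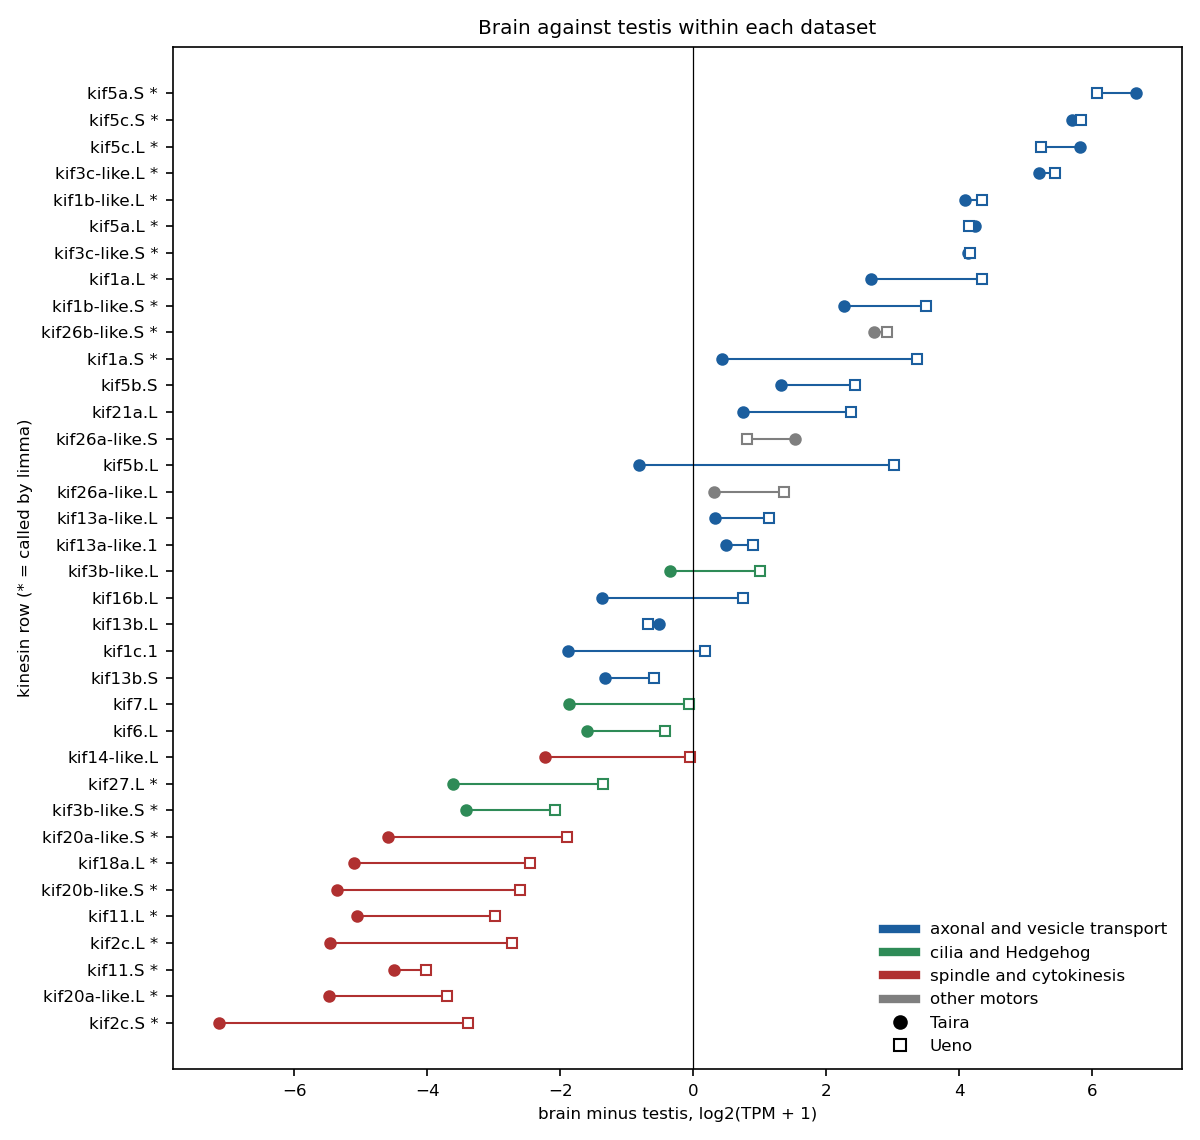
Brain minus testis for each kinesin row on the log2(TPM + 1) scale (horizontal axis), within the Taira dataset (filled circles) and the Ueno dataset (open squares), with a line joining the 2 values and an asterisk on rows called by limma. The called transport rows lie to the right of 0 and the called spindle rows to the left in both datasets.

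The kif5 genes encode kinesin-1 heavy chains, the conventional motors of fast axonal transport, and in mammals KIF5A and KIF5C are enriched in neurons. Copy kif5a.S stood at 191 TPM in the Taira brain and 79.1 TPM in the Ueno brain, against a testis mean of 0.545 TPM. It was the row with the largest difference between brain and testis, at 6.37 ± 0.42 (SE, n = 2 libraries per tissue, adjusted p = 8.35e-10 from limma). Its other copy, kif5a.L, had 41.1 and 19.7 TPM in brain and a testis mean of 0.705 TPM, a difference of 4.19 ± 0.34 (adjusted p = 1.26e-08, limma). Both brain libraries lay above both testis libraries for each copy.

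The kif5c copies were close to each other in level. In brain kif5c.L had 124 and 48.97 TPM and kif5c.S had 82.2 and 62.2 TPM, while their testis means were 0.780 and 0.355 TPM. The differences were 5.52 ± 0.40 for kif5c.L and 5.77 ± 0.22 for kif5c.S (adjusted p = 2.77e-09 and 6.24e-13, limma). Brain held 91.4% and 92.2% of the summed tissue means of these copies, the largest shares of any kinesin row in any tissue. Another kinesin-1 gene, kif5b, is broadly expressed in mammals, and its level here was spread over the tissues. Row kif5b.S ranged from 0.77 to 109 TPM with a median of 11.2 TPM over the 28 libraries, and kif5b.L from 0.48 to 39.0 TPM with a median of 6.03 TPM. Neither kif5b copy was called between brain and testis, but with the dataset as a block kif5b.S was (adjusted p = 0.0273, limma).

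Other transport motors called higher in brain belonged to kinesin-3 and kinesin-2. The kif1a gene encodes a carrier of synaptic vesicle precursors. In brain kif1a.L had 65.5 and 45.04 TPM and kif1a.S had 16.3 and 45.6 TPM, and the testis means were 5.33 and 7.67 TPM. The kif1a.L difference was 3.51 ± 0.49 (adjusted p = 1.36e-05, limma), and kif1a.S differed by 1.90 (adjusted p = 0.00205). Without brain replicate 2, or without testis replicate 2, kif1a.S was no longer called.

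KIF3C is a neuron-enriched kinesin-2 motor in mammals. Row kif3c-like.L had 46.3 and 52.1 TPM in brain, 14.2 and 14.7 TPM in eye, and at most 0.97 TPM in every other library. The brain to testis difference was 5.31 ± 0.24 (adjusted p = 3.87e-12, limma). Row kif3c-like.S had 16.6 and 16.9 TPM in brain and was listed at 0 in both testis libraries. These were the transport rows whose brain libraries agreed most closely.

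KIF1B carries synaptic vesicle precursors and mitochondria in mammals. Row kif1b-like.L had 134 TPM in the Taira brain and 30.9 TPM in the Ueno brain, with a testis mean of 3.77 TPM and a difference of 4.22 ± 1.13 (adjusted p = 0.0063, limma). Its call was lost without brain replicate 1 (adjusted p = 0.1) and without testis replicate 2 (adjusted p = 0.0966). Row kif1b-like.S had 20.8 and 14.2 TPM in brain and a testis mean of 1.93 TPM, a difference of 2.89 (adjusted p = 0.00339), and lost its call without testis replicate 2.

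The other transport rows were not called between brain and testis. The kinesin-3 row kif1c.1 was highest in muscle, at 112 and 148 TPM, and heart, at 140.4 and 74.6 TPM, and stood at 20.7 and 15.9 TPM in brain. KIF16B, which moves early endosomes in mammals, was represented by kif16b.L, and this row had 32.5 TPM in the Taira ovary but 0.80 TPM in the Ueno ovary. KIF21A, a kinesin-4 that restrains microtubule growth, was represented by kif21a.L with 109 and 18.2 TPM in brain, 64.2 and 2.70 TPM in testis, and 56.9 and 0.88 TPM in ovary. The F test over tissues called neither kif21a.L nor kif16b.L (adjusted p = 0.73 and 0.891, limma), and with the dataset as a block it called kif21a.L (adjusted p = 0.014) but not kif16b.L (adjusted p = 0.096). Rows of kif13a-like and kif13b, members of the kinesin-3 family, stayed at or below 30.8 TPM in every library.

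The spindle group was low throughout the brain. No row of it passed 1.79 TPM in either brain library. KIF11, known as Eg5 from work in Xenopus eggs, pushes spindle poles apart. Row kif11.S had 1.05 and 0.13 TPM in brain and 45.2 and 17.2 TPM in testis, a difference of -4.25 ± 0.79 (adjusted p = 2.81e-04, limma). For kif11.L the testis values were 48.0 and 7.88 TPM, and the difference was -4.02 ± 0.96 (adjusted p = 0.00256).

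KIF2C, also called MCAK, takes microtubules apart at kinetochores. Row kif2c.S had 208 and 13.6 TPM in testis against 0.49 and 0.40 TPM in brain, the largest difference of the group at -5.26 ± 1.09 (adjusted p = 8.39e-04, limma), and kif2c.L, with 77.5 and 7.16 TPM in testis, differed by -4.09 ± 1.02 (adjusted p = 0.00361). KIF20A is needed for cytokinesis. Row kif20a-like.L had 59.8 and 16.2 TPM in testis and kif20a-like.S had 24.6 and 2.89 TPM, and they differed from brain by -4.59 and -3.25 (adjusted p = 3.86e-04 and 1.45e-04, limma). For each of these rows both testis libraries lay above both brain libraries.

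KIF18A aligns chromosomes on the spindle. Row kif18a.L had 88.9 and 9.59 TPM in testis and 1.63 and 0.93 TPM in brain, and kif20b-like.S, a relative of a cytokinesis motor, had 114 and 6.98 TPM in testis and 1.79 and 0.31 TPM in brain. Both were called (differences -3.78 and -3.98, adjusted p = 0.00476 and 0.0211, limma). The uncalled row was kif14-like.L, with 5.11 and 0.32 TPM in testis and 0.31 and 0.28 TPM in brain (-1.13, adjusted p = 0.368). Without testis replicate 1, 5 of the 36 rows were called lower in place of 10, and they were kif11.S, kif2c.S, kif20a-like.L, kif20a-like.S and kif3b-like.S. Row kif20b-like.S also lost its call without brain replicate 2 (adjusted p = 0.124).

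Of the 5 cilia rows, 2 were lower in brain than in testis. KIF3B pairs with KIF3A in the motor that carries intraflagellar transport trains into cilia. Row kif3b-like.S stood at 222 and 101 TPM in testis, 69.5 and 15.2 TPM in ovary and 19.9 and 23.0 TPM in brain, a brain to testis difference of -2.75 ± 0.52 (adjusted p = 3.37e-04, limma). In mice Kif27 is needed for motile cilia, and kif27.L had 54.3 and 4.73 TPM in testis against 3.53 and 1.23 TPM in brain (-2.49 ± 0.85, adjusted p = 0.0277, limma). That call was lost without testis replicate 1 and without brain replicate 2. KIF7 regulates Hedgehog signalling at the ciliary tip, and kif7.L was spread over tissues, from 0.72 to 39.5 TPM with a median of 4.76 TPM. The kif6.L row was highest in ovary, at 28.7 and 6.50 TPM, then testis, at 10.7 and 5.89 TPM.

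The sperm tail and motile cilium markers were high in testis as a sum, but not each of them. Their 17 rows summed to 1850 and 993 TPM in testis, 131 and 101.5 TPM in brain and 32.3 and 21.7 TPM in ovary, with 1 marker at 0 in each testis library. Of the 16 tested, 8 were lower in brain than in testis (50%, background 9.58%) and 2 were higher (12.5%, background 26.2%). The higher rows were foxj1.L and foxj1.S, which encode a regulator of motile cilia (3.53 and 1.64, adjusted p = 8.82e-11 and 8.75e-04, limma). The part of sperm cells in the cilia values was not tested.

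In mice KIF26A binds microtubules without moving along them, and KIF26B takes part in kidney development. Row kif26b-like.S was highest in heart, at 34.9 and 10.2 TPM, followed by brain at 22.9 and 7.57 TPM, and it was higher in brain than in testis (2.81 ± 0.63, adjusted p = 0.00162, limma). The kif26a-like copies never passed 5.68 TPM. With the dataset as a block kif26a-like.S was also called higher in brain than in testis (adjusted p = 0.0193).

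The comparison of brain with ovary shares its brain libraries with the one above. It called 14 kinesin rows higher (38.9%, background 32.4%) and 9 lower (25%, background 12.4%). Quantile normalization gave 11 higher and 12 lower. The higher rows were 10 transport rows, kif3b-like.L and the 3 KIF26 rows, and the lower ones were 8 spindle rows and kif6.L. In ovary kif5a.S had a mean of 0.010 TPM, and the difference from brain was 6.94 ± 0.42 (adjusted p = 1.89e-10, limma). Both kif1a copies were near 0 in ovary, with means of 0.015 and 0.010 TPM, so kif1a.L and kif1a.S differed from brain by 5.77 and 4.81 (adjusted p = 1.86e-08 and 4.81e-08).

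Ovary had the highest mean level of 7 of the 9 spindle rows, and kif18a.L and kif20a-like.S were highest in testis. Of those 7, kif20a-like.L and kif20b-like.S were highest in testis in the Ueno dataset. In ovary kif11.S had 282 and 49.9 TPM, and brain differed from ovary by -6.30 ± 0.79 (adjusted p = 2.63e-06, limma). The ovary values were 278 and 23.1 TPM for kif2c.L, 290.2 and 19.1 TPM for kif2c.S, and 181 and 12.7 TPM for kif20a-like.L. Brain differed from ovary by -5.79, -5.73 and -5.21 for these rows (adjusted p = 1.23e-04, 2.81e-04 and 7.94e-05, limma). The kif14-like.L row, a relative of a cytokinesis motor, had 122 and 4.75 TPM in ovary and 87.9% of its summed tissue means lay there. Without either brain library, or without ovary replicate 1, 6 spindle rows were called in place of 8, and the rows lost were kif18a.L and kif20b-like.S, with adjusted p of 0.0469 and 0.0279 in limma with all libraries. The kif18a.L call lay close to the threshold and was lost for 23 of the 28 single libraries left out, with a pseudocount of 0.1 or 5 and with no filter, and the last setting also ended the kif20b-like.S call (adjusted p = 0.0511). Among the remaining rows, kif26a-like.S was lost without brain replicate 1 or either ovary library. Row kif26a-like.L was lost without brain replicate 1, kif6.L without ovary replicate 1, and kif1b-like.S and kif3b-like.L without ovary replicate 2. With the dataset as a block, kif13a-like.1 and kif21a.L joined the higher rows (adjusted p = 0.0228 and 0.0334).

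Between testis and ovary few kinesins were called. Testis had 5 rows higher (13.9%, background 14.7%) and 1 lower (2.78%, background 12.1%), shares near or under the background. The higher rows were kif1a.L, kif1a.S, kif3b-like.L, kif3b-like.S and kif20a-like.S. Row kif1a.S had 11.8 and 3.50 TPM in testis and a mean of 0.010 TPM in ovary, a difference of 2.91 ± 0.44 (adjusted p = 5.92e-05, limma), and kif3b-like.S differed by 2.16 ± 0.52 (adjusted p = 0.00402). The lower row was kif14-like.L (-3.23, adjusted p = 0.0114), whose libraries overlapped between the organs. Those of the higher row kif20a-like.S overlapped as well, with 24.6 and 2.89 TPM in testis and 3.04 and 0.25 TPM in ovary. Counts moved from 2 to 11 for higher rows and from 0 to 8 for lower rows as single gonad libraries were left out. Without ovary replicate 1 or testis replicate 2, 11 and 10 rows were higher and none was lower. Without ovary replicate 2 or testis replicate 1, 2 rows were higher, kif1a.L and kif1a.S, and 8 and 3 were lower. With the dataset as a block kif27.L and kif26a-like.L were also higher in testis and kif11.S lower (adjusted p = 0.0261, 0.0248 and 0.00218).

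Each organ was also set against the mean of the other 13, and these contrasts share all libraries. Brain had 14 kinesin rows higher (38.9%, background 35.5%) and 1 lower (2.78%, background 3.89%), so the number of higher rows was near the background. The lower row was kif11.S (-1.83, adjusted p = 0.0149, limma). Scaling mattered to the split, since the median of all models was 0.72 here and -0.09 with median-of-ratios scaling, which gave 11 higher and 6 lower rows, as did quantile normalization. The dataset block gave 16 higher, with kif21a.L and kif5b.S added, and 5 lower, with kif11.L, kif20a-like.L, kif2c.L and kif2c.S added. The largest difference was again kif5a.S at 6.40 ± 0.31 (adjusted p = 5.51e-12, limma). Without brain replicate 2 no row was lower, and without ovary replicate 2 there were 4, with 2 each without ovary replicate 1 and testis replicate 2.

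Eye had 8 rows higher than the mean of the other organs (22.2%, background 17.7%), the copies of kif1a, kif3c-like, kif5a and kif5c. In eye kif5a.S had 28.3 and 11.4 TPM, and its difference was 3.49 ± 0.31 (adjusted p = 6.23e-08, limma). Row kif3c-like.L differed by 3.21 ± 0.17 (adjusted p = 5.64e-11, limma). The eye values of these 8 rows lay below their brain values in both datasets. By limma 0 rows were lower in eye (background 1.85%), and 0 were lower at an unadjusted p under 0.05. Photoreceptor markers were called higher in eye for 8 of 8 tested rows and neuron markers for 10 of 10. With the dataset as a block kif1b-like.L was called too (adjusted p = 0.0314), and kif1a.L lost its call without eye replicate 1 (adjusted p = 0.0647).

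Testis had 17 rows higher than the mean of the other organs (47.2%, background 18.8%). They were the 5 cilia rows, 8 of the 9 spindle rows and 4 transport rows, kif1a.L, kif1a.S, kif13b.L and kif13b.S. By mean level both kif1a copies were still higher in brain than in testis. Rows kif6.L, kif13b.S and most of these spindle rows were higher in ovary. By limma 0 rows were lower (background 7.58%), and 2 were lower at an unadjusted p under 0.05. The kif3b-like.S difference was 4.26 ± 0.38 (adjusted p = 1.01e-07, limma), and both its testis libraries lay above every library of the other organs. Without testis replicate 1 the count of higher rows was 5 (kif1a.S, kif3b-like.S, kif6.L, kif20a-like.L and kif20a-like.S). Ovary had 11 rows higher (30.6%, background 23.6%) and 4 lower (11.1%, background 19.4%). The higher rows were 8 spindle rows with kif3b-like.S, kif6.L and kif13b.S, and the lower ones were kif1a.L, kif3c-like.L, kif5a.S and kif26b-like.S. Quantile normalization gave 13 higher and 1 lower. Without ovary replicate 1 there were 7 higher, which were 6 spindle rows and kif6.L, and without ovary replicate 2 there was 1 lower, kif3c-like.L. The lower calls of kif1a.L, kif5a.S and kif26b-like.S were lost without either ovary library (adjusted p = 0.0811, 0.0606 and 0.124 without replicate 1). The dataset block added kif27.L to the higher and kif1b-like.L to the lower rows (adjusted p = 0.0427 and 0.0414).

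Spleen, an organ of blood cells that divide, was included as a somatic comparison. Its spindle rows summed to 42.5 and 17.5 TPM, above brain and under the gonads in both datasets. By limma 0 rows were higher in spleen (background 15.7%), and 0 were at an unadjusted p under 0.05. In the other direction 2 were lower (5.56%, background 6.95%), kif1a.L and kif5a.S. Neither lower call was kept when a spleen library was left out, and 1 was kept without brain replicate 1 or eye replicate 1. With the dataset as a block kif13a-like.1 and kif11.S were called higher (adjusted p = 0.00474 and 0.0234).

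Kidney had the next highest spindle sum after the gonads, at 98.9 and 32.7 TPM. Oocyte markers summed to 265 and 372 TPM in kidney, with 2 of the 14 rows at 0 in each library, against 4433 and 7597 TPM in ovary and at most 20.6 TPM in brain and spleen. The part of oocyte RNA in the kidney values was not tested.

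Genes that work with kinesins were counted between brain and testis, where 26.2% of all models were higher in brain and 9.58% lower. The list drawn up for kinesin light chains and cargo adaptors matched no light chain row, so light chains were not tested. Among its adaptor and partner rows, 11 of 17 tested (64.7%) were higher in brain and 1 (5.88%) was lower, with a median difference of 2.23. The scaffold mapk8ip1.L, which links kinesin-1 to its cargo, differed by 5.31 (adjusted p = 7.2e-09, limma). Cytoplasmic dynein and dynactin, which move cargo the other way, had 10 of 21 rows higher (47.6%), led by dctn1.S (3.88, adjusted p = 9.78e-08). Mitotic partners such as ccnb2.L (-6.76) and plk1.L (-6.61) had 29 of 40 rows lower in brain (72.5%), with a median of -4.40. Of 21 intraflagellar transport rows 0 were higher in brain and 3 were lower (14.3%), among them ift172.L (-2.07, adjusted p = 1.03e-04, limma). Their median difference was -0.275, against 0.463 over all models.

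Motors named outside the kif series followed the spindle rows in part. The minus-end spindle motor kifc1.L was lower in brain than testis (-4.01, adjusted p = 9.87e-04, limma), as was the kinetochore motor cenpe-like.L (-3.47, adjusted p = 0.0439), the 2 called of 4 rows. Row cenpe-like.L had 68.6 TPM in the Taira testis and 1.41 TPM in the Ueno testis, against 0.26 and 0.09 TPM in brain. Neuron markers were higher in brain for 10 of 10 rows, and meiotic and germ cell markers were lower for 11 of 11. The meiotic markers summed to 5177 TPM in the Taira testis and 741 TPM in the Ueno testis, with 1 of 12 rows at 0 in each. The part of germ cell number in the testis values was not tested.

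Copies on the L and S chromosomes were compared for the 12 kinesin genes with 1 row of each. Because reads of near-identical copies must be divided between them, each ratio carries the uncertainty of that division. Over the 14 tissues, 2 of the 12 pairs had L higher by at least 1 on the log2 scale (background 15.6%) and 1 had S higher (background 8.19%). The L copy led for kif13b, with means of 8.32 and 0.513 TPM and a ratio of 2.44 ± 0.08 (adjusted p = 3.45e-15, limma), in 28 of 28 libraries, and for kif20a-like (1.36 ± 0.11, adjusted p = 2.74e-09). The S copy led for kif3b-like in 28 of 28 libraries (-1.55 ± 0.07, adjusted p = 1.18e-13, limma). For kif5c the mean ratio was 0.05 ± 0.05. Outside brain and eye both kif5c copies stayed at or below 1.22 TPM, where the added 1 TPM draws the ratio toward 0. In brain the kif5c ratio was 0.59 in Taira and -0.34 in Ueno.

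The balance of copies varied over tissues for 8 of 12 pairs (background 80.3%), and for kif1b-like and kif5b also with the dataset as a block (adjusted p = 0.0108 and 0.0289). For kif3b-like the mean log2 ratio ran from -4.35 in testis to -0.64 in pancreas. In pancreas kif3b-like.S had 1.31 and 1.23 TPM and kif3b-like.L 0.46 and 0.45 TPM, so the added 1 TPM draws that ratio toward 0. In testis kif3b-like.S had 222 and 101 TPM beside 10.9 and 3.58 TPM for the L copy, and the ratio in ovary was -4.37 and -3.37. Brain ratios were -1.16 and -1.38, nearer 0 than in each gonad library. On this scale the kif20a-like ratio was highest in ovary, at 4.47, where kif20a-like.L had 181 and 12.7 TPM and kif20a-like.S had 3.04 and 0.25 TPM. In kidney kif20a-like.L had 11.2 and 3.50 TPM and kif20a-like.S had 0.17 and 0.07 TPM. Outside the gonads kif20a-like.S stayed at or below 0.27 TPM, so the added 1 TPM largely sets the ratio there.

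The kif2c copies were level in ovary, with ratios of -0.06 and 0.26, but not in testis, eye or muscle. The S copy had 208 and 13.6 TPM in testis beside 77.5 and 7.16 TPM for L. In eye the values were 11.99 and 4.09 TPM for S and 3.06 and 0.62 TPM for L, and in muscle 8.70 and 3.62 TPM for S and 1.43 and 0.38 TPM for L. The ratio was lowest in muscle, at -1.87 (F test adjusted p = 2.5e-05, limma). Muscle is an organ with few dividing cells, and its spindle motors other than kif2c.S stayed at or below 1.76 TPM.

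Between brain and testis the ratio differed by at least 1 in 5 of 12 pairs (background 32%). These were kif3b-like (3.08 ± 0.35), kif5a (-2.18 ± 0.23), kif1a (1.61 ± 0.52), kif3c-like (1.17 ± 0.20) and kif2c (1.17 ± 0.29). For kif5a and kif3c-like both copies were near 0 in testis, so the ratio there is set by the added 1 TPM. In brain kif2c.L had 0.78 and 0.24 TPM and kif2c.S had 0.49 and 0.40 TPM, so the added 1 TPM largely sets the kif2c ratio in brain. In brain kif5a.S exceeded kif5a.L, with ratios of -2.19 and -1.96. With the dataset as a block kif1b-like and kif20a-like were called as well (adjusted p = 0.0268 and 0.0357). Leaving out brain replicate 1 reduced the count to 3, with kif1a and kif2c lost, and without testis replicate 1 kif2c was lost too (adjusted p = 0.0589).

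**Figure D4:**
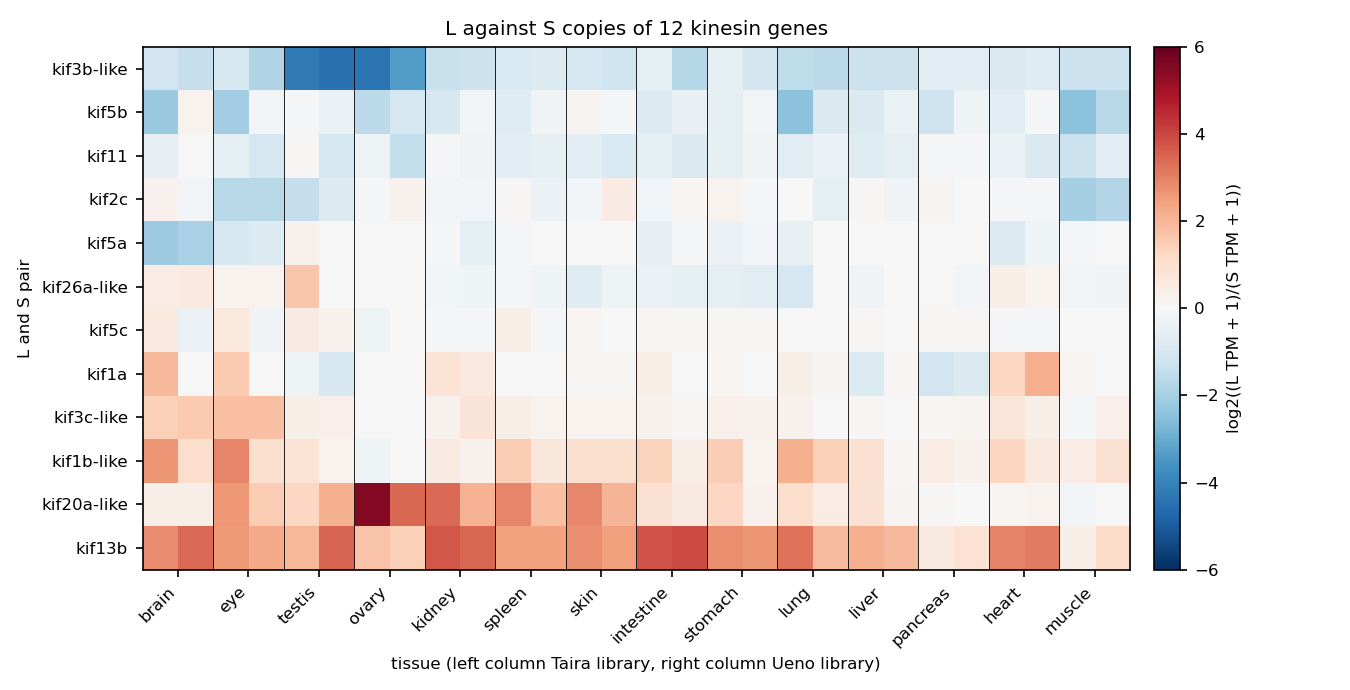
Log2 ratio of the L over the S copy, (TPM + 1) of each, for the 12 kinesin pairs (rows) in the 28 libraries (columns). Each tissue has its Taira then its Ueno library, with colour from S higher to L higher. On this scale the S lead of kif3b-like is deepest in testis and ovary, and the L lead of kif20a-like is greatest in ovary. Pair kif2c is S-led in muscle, eye and testis and level in ovary.

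Across the 13 female tissues the datasets were compared with the tissue as a block, a comparison chosen after the values were seen. The Ueno libraries had 10 kinesin rows lower than the Taira ones (27.8%, background 9.93%), and the median difference was -0.628 over the kinesin rows and -0.219 over all models. By limma 0 rows were higher in Ueno (background 0.648%), and 0 at an unadjusted p under 0.05. Levels were lower in 13 of 13 tissues for 6 rows (16.7%, background 6.08%), kif1b-like.L, kif5b.S, kif21a.L, kif11.L, kif2c.L and kif20b-like.S. The largest difference was -2.22 ± 0.31 for kif21a.L (adjusted p = 1.65e-04, limma), followed by -1.95 for kif16b.L and -1.91 for kif5b.S. In contrast, kif3c-like.L (-0.11), kif5c.S (-0.12) and kif1a.S (0.03) had small differences and were not called. Median-of-ratios scaling gave 6 lower rows and quantile normalization 4.

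Between the datasets in ovary, the mitotic partners had a median of -2.13 with 25 of 40 rows lower in Ueno, and their summed level was 9943 TPM in ovary replicate 1 (Taira) and 13820 TPM in ovary replicate 2 (Ueno). Oocyte markers had a median of 0.14 between the same libraries. The intraflagellar transport rows, 21 of 21, were lower in the Ueno ovary, with a median of -2.67. Over all models the median between these libraries was -0.176. Their median-of-ratios scale factors were 2.75 (Taira) and 0.77 (Ueno), so models present in every library were lower in the Ueno ovary too. The share of all models lower in the Ueno ovary is not given here, so these counts have no background.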

How the data were processed

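RNA was sequenced from whole minced tissue after TRIzol extraction and poly-A capture, without strand information, on an Illumina HiSeq, per the labels' protocols. Per the submitters' processing notes the tools were RSEM 1.2.19 and BWA 0.7.10, and the labels name cDNA models as the target of alignment. The single deposited table holds the authors' TPM values, and TPM keeps no depth, so no count model and no counting interval was used. Every value column matched 1 sample's name.

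Models with at least 1 TPM in at least 2 of 28 libraries were fitted on log2(TPM + 1) using limma 3.58.1 (R 4.3.3), a mean for each tissue, a variance trend and 14 residual degrees of freedom. Adjusted p-values are Benjamini-Hochberg values from limma over all models, and over 7749 pairs for the copies (of 8017 pairs with 1 L and 1 S row). The members, the role groups and the lists of partner genes and markers were chosen with earlier results of these data known, so a direction in them is not independent evidence. Any kinesin row could be named by its level. Full statistics were given for up to 8 called rows per direction in a pair of organs and 6 per organ against the rest, and up to 3 called rows of each partner list, and other rows that are named were chosen after their values were seen.

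By the submitters' design text, libraries with the same replicate number share a female donor in 13 tissues, which pairs them. As a check, Ueno minus Taira differences were correlated between female tissues across genes, and r had a median of 0.425 in 78 tissue pairs and was over 0.1 in 74. The main fit leaves this pairing out, and the block is given where it changes a call. That block also covers the testis libraries, which came from other animals. Each tissue rests on 2 animals. On simulated data with 200 changed models of 33317, the brain against testis contrast recovered 1%, 20.5% and 65% at log2 changes of 1.5, 2 and 3. The simulated tissues were otherwise equal, and the noise of the libraries was independent. The real contrast called 8731 models higher and 3192 lower, far more than 200, so these rates may not carry over to the data. Results for kinesin rows and pairs, but not for the partner and marker lists, were recomputed under other settings. These were other pseudocounts (0.1 or 5), no filter or a 5 TPM one, median-of-ratios scaling or quantile normalization, and the dataset as a block. Others dropped the variance trend, dropped the gonads from the reference organs or required both copies to pass. Testis was also included between datasets, and each library was left out in turn. Sequences of these genes are not analysed here.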

Additional observations from a re-analysis of the deposited data

Results flagged for a closer look

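The balance of L and S copies differed between brain and testis for 5 of 12 kinesin pairs, by a limma test of the difference itself. The same test called 2481 of all 7749 pairs (32%). The log2 ratio in brain minus that in testis was 1.606 for kif1a, 1.166 for kif2c, 3.076 for kif3b-like, 1.169 for kif3c-like and -2.177 for kif5a. The adjusted p-values from limma were 0.0214, 0.00438, 2.7e-06, 1.76e-04 and 1.06e-06 in that order. The kif1a value fell to 0.63 (adjusted p = 0.405) without brain replicate 1 and to 1.27 (adjusted p = 0.142) without testis replicate 2, and had an adjusted p of 0.0964 with a pseudocount of 0.1. The kif2c call was lost without brain replicate 1 (0.95, adjusted p = 0.0618), without testis replicate 1 (0.88, adjusted p = 0.0589) and with a pseudocount of 0.1 (adjusted p = 0.129). For kif3c-like and kif5a both copies were near 0 in testis, and the kif3c-like value was -0.29 with a pseudocount of 0.1. Both kif2c copies stayed at or below 0.78 TPM in brain, so the added 1 TPM largely sets that ratio.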

How the results depend on the processing

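The counts of kinesin rows called between brain and testis, and between brain and ovary, stayed within 1.5 times of the reported ones under each setting that kept all libraries. With a pseudocount of 0.1, testis against ovary had 10 higher rows, testis against the others 1 lower, ovary against the others 10 lower, spleen against the others 5 lower, and Ueno against Taira 20 lower, while 4 pairs had L higher, 2 pairs S higher, and 2 pairs differed between brain and testis. A pseudocount of 5 gave 3 higher and 2 lower rows for testis against ovary, 0 lower for brain, 3 higher for eye, 11 higher for testis, 0 lower for ovary and 0 lower for spleen against the others, 3 lower for Ueno against Taira, and 1 pair with L and 0 pairs with S higher. Median-of-ratios scaling gave 8 higher and 2 lower for testis against ovary, 6 lower for brain, 1 lower for spleen, and 6 lower for Ueno. Quantile normalization gave 2 lower for testis against ovary, 6 lower for brain, 1 lower for ovary, 1 lower for spleen, and 4 lower for Ueno. The replicate block gave 2 lower rows for testis against ovary, 5 lower for brain and 2 higher for spleen against the others, and beyond the calls named in the results it left the direction of each named row as it was. With gonads dropped from the reference organs, brain had 0 lower and spleen 1 higher. The cause of these moves was not tested.

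Leaving out 1 library at a time gave these ranges. Brain against testis had 8 to 12 higher and 5 to 11 lower, brain against ovary 11 to 16 higher and 6 to 12 lower, and testis against ovary 2 to 11 higher and 0 to 8 lower. Against the other tissues brain had 12 to 14 higher and 0 to 4 lower, eye 7 to 8 higher, testis 5 to 17 higher, ovary 7 to 16 higher and 1 to 4 lower, and spleen 0 to 2 lower. The F test called 24 to 29 rows and 6 to 9 pairs, 3 to 7 pairs differed between brain and testis, and Ueno against Taira had 7 to 13 lower. The lone library left in a tissue was assumed to vary like the others.

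Of the named rows and pairs, those that changed sign were uncalled brain minus testis ratios, except kif3c-like. With a pseudocount of 0.1 kif11 was -0.023 and kif3c-like -0.29. With a pseudocount of 5 kif13b was -0.14 and kif5c 0.018. With 1 library left out, kif11 lay from -0.33 to 0.79 (-0.0037 without brain replicate 2), kif13b from -0.37 to 1.10, kif26a-like from -1.16 to 0.49, kif5b from -1.99 to 0.44 and kif5c from -0.71 to 0.22. Depth is unknown, so the counting error of low values cannot be given, and 2 animals per tissue limit the precision.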
